A study of Mus musculus with 9 samples.

Results

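The genes described here were 10 mouse genes that carry the engulfment signal to the actin cytoskeleton or bind actin at the cell edge: Elmo1, Elmo2, Dock1, Dock2, Rac1, Rac2, Gulp1, Vav1, Coro1a and Coro2b. They were chosen by gene name among 34650 gene names on the array, with earlier results of these data known. They were read by 13 probes, and all 10 were among the 24102 genes tested. The arrays came from primary microglia of fms-EGFP mouse pups (postnatal day 0 to 1), grown with GM-CSF (5 ng/ml), in which a fluorescent reporter is driven by the promoter of the CSF1 receptor gene. Every group carried this transgene. Fed cultures (phagocytic, Ph) received apoptotic SH-SY5Y, a human neuroblastoma line labelled with CM-DiI and killed with staurosporine (3 µM, 4 h), at about equal numbers, and were lysed 3 h (Ph3h) or 24 h (Ph24h) later. Control cultures were naive. Each group had 3 arrays. The comparison asks how these genes differed early and late after a meal of dead cells. No unfed culture of 3 h or 24 h was analysed here, so feeding and time in culture cannot be told apart.

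In the classical engulfment pathway, receptors that recognise dying cells recruit ELMO proteins, scaffolds that bind DOCK proteins. DOCK proteins are exchange factors that load the small GTPase Rac with GTP, and active Rac drives branched actin through the WAVE and Arp2/3 complexes, which pushes the membrane around the target. GULP1 is an adaptor that binds the tails of engulfment receptors. VAV1 is an exchange factor of blood cells that acts downstream of tyrosine kinases. Coronins bind actin filaments and the Arp2/3 complex. Elmo1, Dock2, Rac2, Vav1 and Coro1a are typical of leukocytes, the lineage of microglia, whereas Elmo2, Dock1 and Rac1 are made in most cell types and Coro2b is best known from neurons.

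The array reads each gene through 60-base probes, and the sequences below show how far probes of related genes can be told apart and where the probes of 1 gene lie. The Elmo1 probe spanned chr13:20681555-20692067 (mm9, plus strand), 10513 bases of genome, so it crosses at least 1 exon junction. The Elmo2 probe lay at chr2:165119746-165119805 (mm9, minus strand). Both were drawn from corresponding stretches of the related transcripts: bases 1 to 36 of the Elmo1 probe aligned without gaps to bases 25 to 60 of the Elmo2 probe, with 30 of 36 bases identical. Capitals mark the 6 bases that differ, and the longest run shared by both probes was 11 bases.
Elmo1: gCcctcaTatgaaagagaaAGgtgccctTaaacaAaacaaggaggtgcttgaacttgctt
Elmo2: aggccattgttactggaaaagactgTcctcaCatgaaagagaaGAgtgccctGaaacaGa
Dock2 was read by a probe nearer the 3′ end of the gene (A_51_P114917, chr11:34129586-34130706, mm9, minus strand) and by one further upstream (A_66_P138212, chr11:34502033-34503249, mm9, minus strand), and both cross an exon junction.
A_51_P114917: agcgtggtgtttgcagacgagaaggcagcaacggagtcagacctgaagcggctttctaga
A_66_P138212: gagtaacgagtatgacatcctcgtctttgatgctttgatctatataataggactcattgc

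For 8 of the 10 genes, 12 promoters in all were found in the RefSeq table (GRCm38.p6; 250 bases before to 50 after each start). Rac1 and Rac2 were not matched. The windows were searched on both strands for the box bound by PU.1, the master factor of microglia and other myeloid cells, written here as GAGGAAG. It was found in 3 of the 12 promoters (25%), 1 each of Dock2, Elmo1 and Vav1, and in 13.6% of all 32851 promoters of the same length. Its first base lay at -9 in Dock2 and at -11 in Vav1, relative to the annotated start, and at 29 and 39 in Elmo1. An AP-1 site (TGANTCA, 7.81% of all promoters) and a cAMP response element (TGACGTCA, 1.79%) were in none of the 12. The GC box (GGGCGG, 35.7% of all promoters) was in 7 of the 12 (58.3%), from 6 genes. The letters around the starts of Dock2 (chr11:34783886-34784005, minus strand), Vav1 (chr17:57279000-57279119, plus strand) and Coro2b (chr9:62537025-62537144, minus strand) are shown from 100 bases before to 20 after the start, with the box in capitals where it occurs, because these genes followed different courses after feeding. A match is a string of letters and does not show binding.
Dock2: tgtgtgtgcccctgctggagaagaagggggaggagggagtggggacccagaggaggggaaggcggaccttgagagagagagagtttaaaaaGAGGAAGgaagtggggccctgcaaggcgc
Vav1: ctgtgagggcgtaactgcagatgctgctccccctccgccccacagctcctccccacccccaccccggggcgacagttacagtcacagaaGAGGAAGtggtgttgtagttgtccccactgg
Coro2b: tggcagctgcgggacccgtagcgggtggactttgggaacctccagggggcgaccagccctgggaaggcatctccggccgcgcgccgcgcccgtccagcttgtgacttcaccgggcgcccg

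Levels are given as log2 of the array's intensity minus log2 of the 75th percentile of that array. This percentile was 356 to 472 intensity units on control, 185 to 211 on Ph3h and 156 to 161 on Ph24h arrays. No spot was saturated, and 25623 to 29288 probes were well above background. The identity of the cultures was checked with 12 microglial markers, all measured, whose summed level (linear, relative to the 75th percentile) ranged from 1480 to 1560 over the control arrays, 1960 to 2160 over Ph3h and 1310 to 1400 over Ph24h. The summed level of 13 measured of 15 neuroblastoma markers was 1.47 to 1.68, 1480 to 1620 and 2250 to 2600 in the same order, and the defining markers Hand2 and Isl1 were not well above background on any control array. Most of the sum in fed cultures was Vgf (mean log2 level -2.49, 10.4 and 11.1). At a limma adjusted p below 0.05, 10 markers were higher at 3 h and 11 at 24 h (76.9% and 84.6%). Of all genes tested, 53.8% and 63.1% differed. Chgb and Tubb3 passed at neither time. Oligodendrocyte markers (8 measured, 6 to 7 well above background on an array) summed to 266 to 326, 420 to 477 and 211 to 245 in the same order, a rise and fall like that of several genes below. Astrocyte markers (7 measured of 8) summed to 15 to 19.3, 16.5 to 18.8 and 17.3 to 17.6, although Aldh1l1 rose by 0.83 and then fell below control (-0.58). Aldoc went the other way (-0.79 at 3 h and 0.44 at 24 h). S100b was at least 1.31-fold lower at 24 h, where no array read it well above background. Fibroblast markers (5 of 6) summed to 0.89 to 1.79 over all arrays, and endothelial markers (4 of 5) to 8.17 to 11.3, 12.1 to 12.3 and 13.6 to 15.3. The part of these other cells in the results below was not tested. The part of RNA from the added human cells in the results below was not tested. In such bulk RNA, fewer cells of a type and less RNA per cell cannot be told apart.

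Elmo1, Dock1, Dock2, Rac2 and Coro1a, 5 of the 10 genes, rose by 3 h relative to the array's 75th percentile. They had fallen below control by 24 h, and Coro2b fell at both times. The early Dock1 call was lost under median scaling, and the other Dock2 probe did not pass the test at 3 h. Before scaling, control and Ph3h intensities overlapped for Elmo1, Dock2, Rac2 and Coro1a. Those of Dock1 were lower in Ph3h (544.9 to 583) than in control (785.3 to 1073.1). At 3 h, 7 of 10 differed from control at a limma adjusted p below 0.05, 6 higher and 1 lower (Coro2b), where 53.8% of all genes tested did, 27.9% higher and 25.9% lower. At 24 h, 9 of 10 differed, 1 higher (Rac1) and 8 lower, against 63.1% of all genes, 29.9% higher and 33.2% lower. Between 24 h and 3 h, 8 of 10 differed and all 8 were lower at 24 h, where 44.4% of all genes differed, 20.3% higher and 24% lower. The arrays of the groups compared did not overlap for 7, 9 and 9 of the 10 genes in these comparisons, against 65.7%, 71.3% and 56.9% of all genes. The median log2 fold change of the 10 genes was 0.43 at 3 h, -0.51 at 24 h and -1.33 between 24 h and 3 h, beside 0.07, 0.006 and 0.04 over all genes. These 3 comparisons share their arrays. The 10 genes were chosen with earlier results of these data known, so their counts beside the all-gene shares do not measure an excess. By the limma F test over the 3 groups 9 of 10 changed (70.5% of all genes did), and Gulp1 did not (adjusted p = 0.074). When arrays were scaled on their medians, the all-gene median moved to -0.18 at 3 h and -0.50 at 24 h. Under it 5 genes differed at 3 h and 9 at 24 h, and Rac1 at 24 h turned from higher to lower (log2 fold change -0.295) while staying above that all-gene median.

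**Figure D1:**
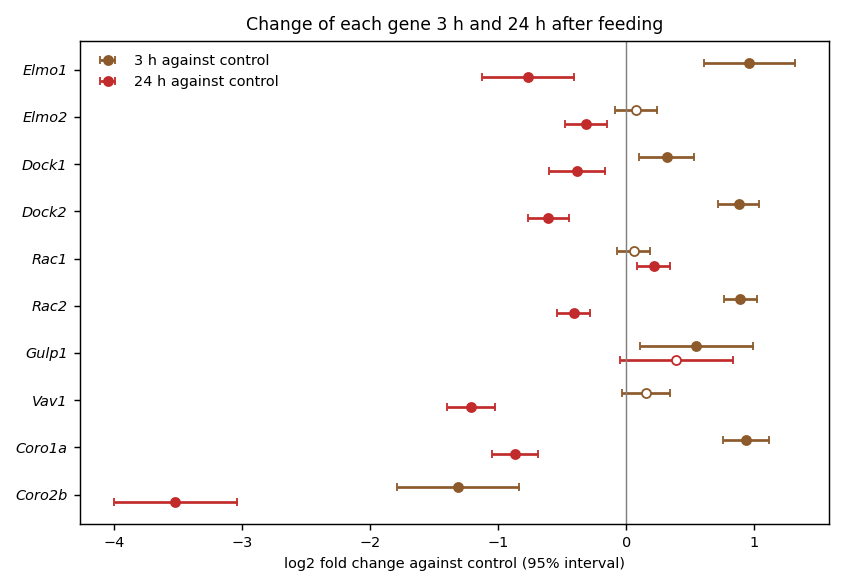
Log2 fold change against control of each gene at 3 h (brown) and 24 h (red), with 95% intervals from the limma fit. Filled points passed the adjusted p threshold of 0.05 and open points did not. The 3 h difference of Dock1 did not pass under median scaling, nor did that of Dock2 with its other probe. Elmo1, Dock1, Dock2, Rac2 and Coro1a lay to the right of 0 at 3 h and to the left at 24 h, Coro2b lay to the left at both times, and Rac1 at 24 h lay to the right, a direction that turned under median scaling, as did those of Elmo2, Rac1 and Vav1 at 3 h and Gulp1 at 24 h (open points).

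Of the ELMO scaffolds, Elmo1 rose and then fell below control, and Elmo2 fell by 24 h with no early change past the test. Elmo1 read -1.39, -1.29 and -1.33 in control, -0.24, -0.36 and -0.53 in Ph3h, and -1.76, -2.19 and -2.35 in Ph24h. No array of one group overlapped another group. The log2 fold change of Elmo1 was 0.96 ± 0.15 (SE, n = 3 arrays a group; 1.95-fold) at 3 h (limma adjusted p = 0.0013) and -0.765 ± 0.15 at 24 h (limma adjusted p = 0.0034). Elmo2 read -0.16, -0.07 and -0.23 in control, -0.12, -0.11 and 0.02 in Ph3h, and -0.52, -0.40 and -0.47 in Ph24h. Control and Ph3h overlapped, and all Ph24h arrays lay below both. The Elmo2 difference was 0.08 ± 0.07 at 3 h (limma adjusted p = 0.38, 95% interval -0.09 to 0.24), a sign that turned under median scaling, and -0.31 ± 0.07 at 24 h (limma adjusted p = 0.0056).

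Both DOCK exchange factors, Dock2, the form of leukocytes, and Dock1, the form first tied to apoptotic cell uptake, rose at 3 h and fell below control by 24 h. The early rise of Dock2 was seen by its brighter probe, whose values follow, and the other probe gave 0.18 (limma adjusted p = 0.21). Dock2 read 2.09, 2.19 and 2.09 in control, 2.97, 3.09 and 2.94 in Ph3h, and 1.52, 1.43 and 1.59 in Ph24h. The 3 groups were fully apart, and Dock2 changed by 0.88 ± 0.07 at 3 h (limma adjusted p = 4e-05) and -0.61 ± 0.07 at 24 h (limma adjusted p = 0.00019). Dock1 read 1.07, 1.38 and 1.14 in control, 1.43, 1.56 and 1.55 in Ph3h, and 0.86, 0.85 and 0.73 in Ph24h. Its groups did not overlap either, but the highest control array came within 0.1 of the lowest Ph3h array. The Dock1 difference was 0.31 ± 0.09 at 3 h (limma adjusted p = 0.023) and -0.385 ± 0.09 at 24 h (limma adjusted p = 0.0082). The early Dock1 call was lost without control replicate 1 (adjusted p = 0.076), control replicate 3 (0.07), Ph3h replicate 2 (0.068) or Ph3h replicate 3 (0.068), and under median scaling (0.65).

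Rac2 rose and then fell below control, and the course of Rac1 depended on its probe. Rac2, the blood cell form that also activates the phagocyte oxidase, read 7.13, 7.01 and 7.04 in control, 7.96, 7.94 and 7.96 in Ph3h, and 6.64, 6.70 and 6.61 in Ph24h. Its groups were separated by far more than their spread, with a rise of 0.89 ± 0.06 at 3 h (1.85-fold, limma adjusted p = 1.2e-05) and a fold change of -0.41 ± 0.06 at 24 h (1.33-fold lower, limma adjusted p = 0.00044). Rac1, the ubiquitous form, read by its brighter probe 5.93, 5.91 and 5.90 in control, 5.98, 6 and 5.93 in Ph3h, and 6.14, 6.18 and 6.05 in Ph24h. Control and Ph3h overlapped and Ph24h lay above both. The Rac1 difference was 0.06 ± 0.05 at 3 h (limma adjusted p = 0.43), with its sign turned under quantile normalization, median scaling, normexp correction and in the deposited value table. At 24 h it was 0.21 ± 0.05 (1.16-fold, limma adjusted p = 0.011), and it was lower under median scaling (-0.295, adjusted p = 0.018). The other Rac1 probe rose at 3 h (0.43, limma adjusted p = 0.0033) and fell from there to 24 h (-0.28, limma adjusted p = 0.027), the direction of Rac2.

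Vav1, the exchange factor of blood cells, fell late with no early change past the test. It read 7.82, 7.93 and 8.05 in control, 8.03, 8.12 and 8.11 in Ph3h, and 6.62, 6.76 and 6.78 in Ph24h. Control and Ph3h overlapped (0.16 ± 0.08, limma adjusted p = 0.14, with the sign turned under quantile normalization, median scaling, normexp correction and in the value table), while every Ph24h array lay more than 1 log2 unit below every control array. The difference at 24 h was -1.21 ± 0.08 (2.32-fold lower, limma adjusted p = 1.2e-05). It was -1.18 on slide 1 and -1.27 on slide 2, with slides inferred from the scan dates. Gulp1, the adaptor, gave the least settled result. It read -2.48, -2.32 and -2.17 in control, -1.89, -1.48 and -1.97 in Ph3h, and -1.66, -1.89 and -2.26 in Ph24h. The Ph3h arrays lay above all control arrays and the Ph24h arrays overlapped both groups. Gulp1 was 0.54 ± 0.19 higher at 3 h (limma adjusted p = 0.043) and 0.39 ± 0.19 at 24 h (limma adjusted p = 0.11, 95% interval -0.05 to 0.83). On slide 1 the Gulp1 differences were 0.72 and 0.63, and on slide 2, with 1 array a group, 0.20 and -0.09. The 3 h call did not hold without control replicate 1 (adjusted p = 0.12), 2 (0.094) or 3 (0.052), Ph3h replicate 1 (0.065) or 2 (0.12), or Ph24h replicate 2 (0.061). The 24 h difference passed the test without Ph24h replicate 3 (0.55, adjusted p = 0.034).

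The coronins went opposite ways at 3 h and the same way at 24 h. Coro1a, the leukocyte coronin found around forming phagosomes, read 6.14, 6.14 and 6 in control, 7.01, 7.08 and 7.01 in Ph3h, and 5.10, 5.32 and 5.26 in Ph24h. Its groups were fully apart, and Coro1a changed by 0.94 ± 0.08 at 3 h (1.92-fold, limma adjusted p = 4.6e-05) and -0.87 ± 0.08 at 24 h (1.83-fold lower, limma adjusted p = 4.8e-05). Coro2b read -0.12, -0.30 and -0.48 in control, -1.22, -1.99 and -1.64 in Ph3h, and -3.64, -3.81 and -4.01 in Ph24h. Each step down exceeded the spread of the arrays. The log2 fold change of Coro2b was -1.31 ± 0.20 at 3 h (2.48-fold lower, limma adjusted p = 0.0012) and -3.52 ± 0.20 at 24 h (11.5-fold lower, limma adjusted p = 6.5e-06), the largest change of the 10 genes. At 24 h the Coro2b probe was well above background on 2 of 3 arrays, with intensities of 12.6, 11.1 and 10, so the size of that fall rests on values near background. With normexp background correction it was -1.92 (limma adjusted p = 2.1e-07).

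**Figure D2:**
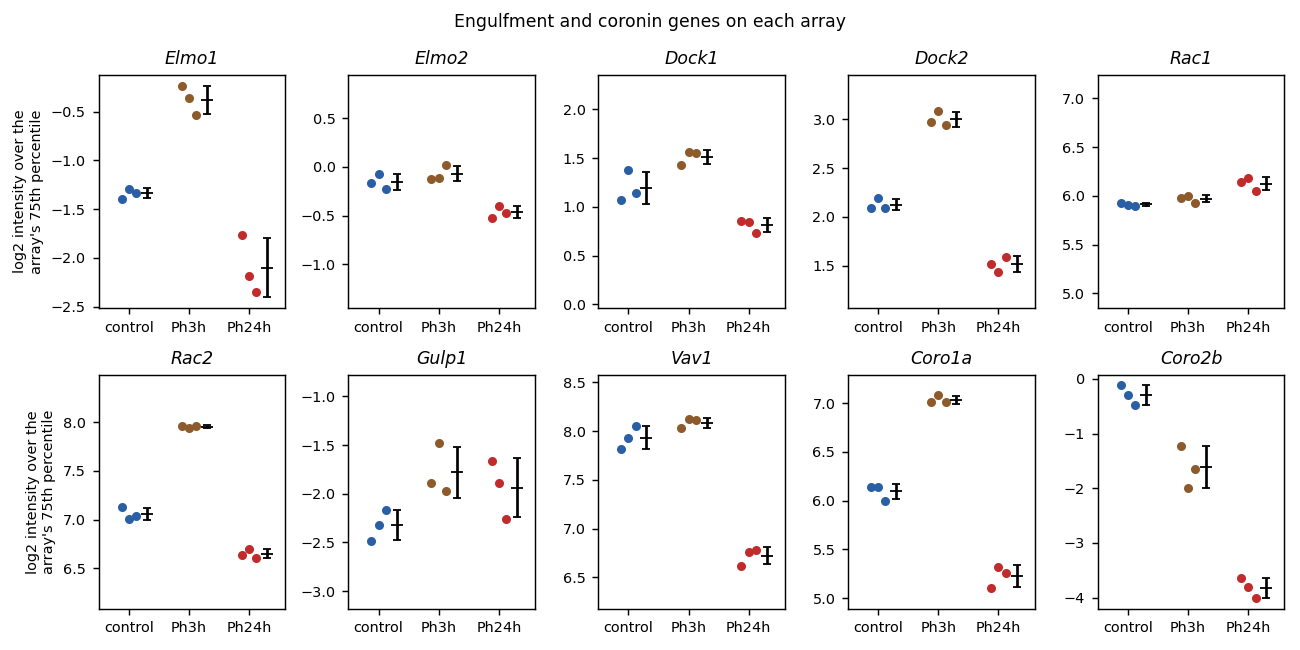
Level of each gene on each of the 9 arrays, as log2 intensity over the array's 75th percentile, with the mean and SD of each group of 3 beside the points. Each panel has its own vertical range, and levels are not comparable between genes. Ph3h lies above and Ph24h below control for Elmo1, Dock1, Dock2, Rac2 and Coro1a, and Coro2b falls in steps to near background. The higher Ph24h level of Rac1 turned to lower under median scaling. Under that scaling the early Dock1 call was lost, and the other Dock2 probe did not pass at 3 h.

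Probes of the same gene did not always give the same size of change. The upstream Dock2 probe (A_66_P138212) gave 0.18 ± 0.11 at 3 h (limma adjusted p = 0.21), where the 3′ probe had passed the test, and -0.97 ± 0.11 at 24 h (limma adjusted p = 0.00017). Labelling had been primed from the poly(A) tail, and the part of probe position in this difference was not tested. For Rac1 the second probe (A_51_P513254) rose by 3 h (0.43 ± 0.08, limma adjusted p = 0.0033) and was 0.15 ± 0.08 at 24 h (limma adjusted p = 0.15), so the 2 Rac1 probes passed the test at different times. The 2 Vav1 probes were closer, with 0.16 ± 0.08 at 3 h and -1.45 ± 0.08 at 24 h for the second one (A_51_P154780). Rac2 was printed on 10 spots of 1 probe, which were averaged.

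**Figure D3:**
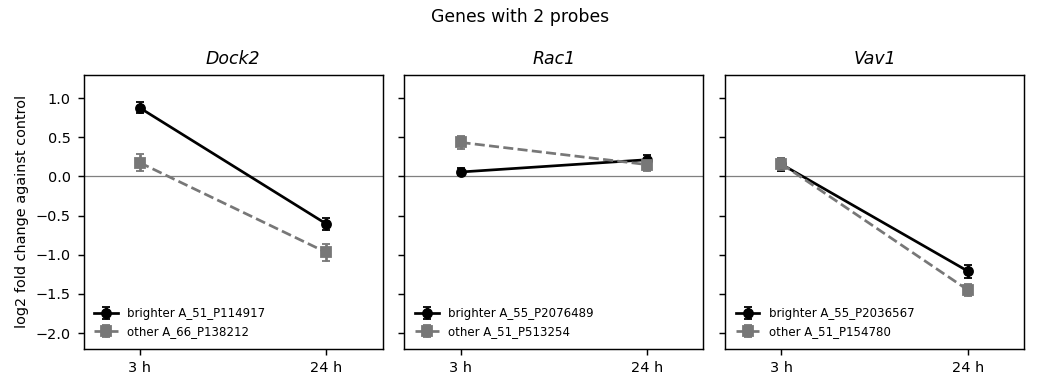
Log2 fold change against control, with its SE, at 3 h and 24 h for the brighter probe (solid line) and the other probe (dashed line) of Dock2, Rac1 and Vav1. The Dock2 probes differ at 3 h (0.88 and 0.18), the Rac1 probes differ at 3 h (0.06 and 0.43), and the Vav1 probes both lie below -1 at 24 h. The sign of the brighter Rac1 probe turned under median scaling at both times, and that of the brighter Vav1 probe at 3 h.

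Ratios of related genes within an array do not depend on how the array is scaled. These pairs were set up after the values had been seen. The log2 ratio of Rac2 to Rac1 was 1.15 ± 0.05 (SD, n = 3) in control, 1.98 ± 0.05 in Ph3h and 0.53 ± 0.03 in Ph24h. The groups were fully apart. With the other Rac1 probe the shift was smaller at 3 h, 0.45 rather than 0.83, and -0.56 rather than -0.62 at 24 h, still without overlap. The ratio of Elmo1 to Elmo2 averaged -1.19 ± 0.07 over control arrays, -0.30 ± 0.22 over Ph3h and -1.64 ± 0.35 over Ph24h arrays, also without overlap. The ratio of Dock2 to Dock1 was 0.92 ± 0.10, 1.49 ± 0.08 and 0.70 ± 0.15, with control and Ph24h overlapping. With the other Dock2 probe its change at 3 h was -0.14 rather than 0.56, with control and Ph3h overlapping. The ratio of Coro1a to Coro2b rose by 2.25 at 3 h and 2.65 at 24 h, and Ph3h and Ph24h overlapped. At 24 h this ratio rests on Coro2b intensities near background, not well above it on 1 of the 3 arrays. Exact two-sided permutation tests of 3 arrays against 3 cannot go below p = 0.1, which 10 of the 12 comparisons reached (0.12 after adjustment over the 12), so none could pass 0.05.

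**Figure D4:**
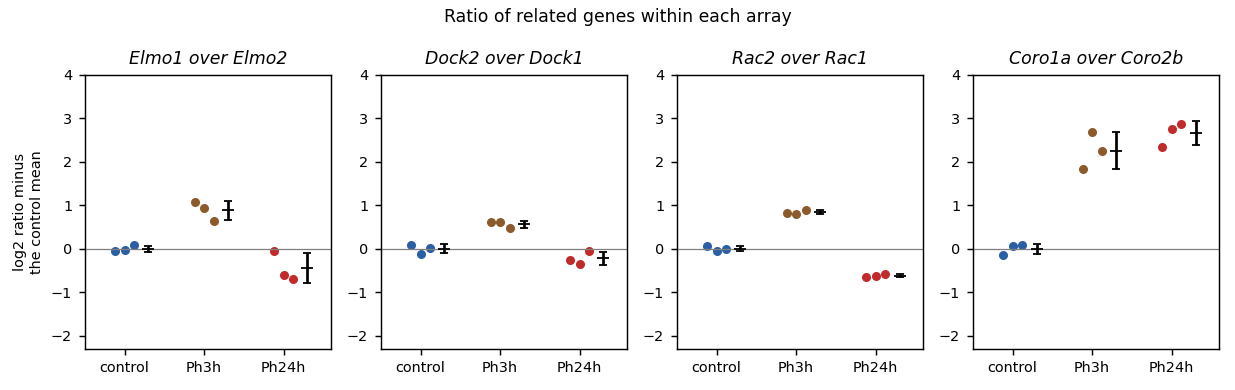
Log2 ratio of related genes on each array, minus the control mean of the pair, with the mean and SD of each group of 3. The ratios Elmo1 over Elmo2, Dock2 over Dock1 and Rac2 over Rac1 lie above 0 at 3 h and have means below 0 at 24 h (with the other Dock2 probe the Dock ratio was also below 0 at 3 h), and Coro1a over Coro2b lies above 0 at both times.

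The 10 genes fell into few patterns over the 9 arrays, described here without a test because the arrays of a group share their treatment. Coro1a, Dock2 by its brighter probe, Rac2 and Elmo1 ran nearly in parallel (Pearson r of 0.989 for Coro1a and Dock2, 0.982 for Dock2 and Rac2, and 0.970 for Dock2 and Elmo1). Vav1 ran closest to Elmo2 (r = 0.935). By its brighter probe, Rac1 ran opposite to Coro2b (r = -0.896) and Vav1 (r = -0.877), on small changes of 0.06 and 0.21. The other Rac1 probe, which took a different course, was not included. Nor was the other Dock2 probe, which gave 0.18 at 3 h (limma adjusted p = 0.21). Over all genes, those most like Coro1a were Sik1 (r = 0.9985), Plk1 (0.9963) and the complement gene C1qc (0.9963). Those most like Vav1 were Ms4a7 (0.9975), a gene of macrophages, Mtmr1 (0.9969) and LOC102641347 (0.9957). Those most like Coro2b were Osgep (0.9962), Foxred1 (0.9954) and Fam3c (0.9953). Each set holds the highest r values among 24102 genes over only 9 arrays in 3 groups.

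Upstream of the 10 genes, receptors for dying cells were mostly lower at 24 h. Of 13 measured receptors and their partners, 1 was higher and 5 were lower at 3 h, and 2 were higher and 10 lower at 24 h (median log2 fold change -0.17 and -1.27). Those past the test were 46.2% and 92.3% of the list, beside 53.8% and 63.1% of all genes tested. Under median scaling 1 receptor was higher and 9 were lower at 3 h, against 1 and 11 at 24 h. Itgb3, an integrin subunit that binds bridged phosphatidylserine, fell at both times, by 1.27 and then by 2.56, and Itgb5, its relative, fell by 0.61 at 3 h. Stab2, a scavenger receptor, was at least 6.23-fold lower at 24 h, where all 3 of its readings were too dim to count as above background. Bai1, the receptor known to bind ELMO1 directly, was the exception, 6.70 higher at 3 h and 7.28 at 24 h on the log2 scale, and it was well above background on 1 of 3 control arrays. Bai1 is best known from neurons and was higher at both times, as were most of the neuroblastoma markers given above, whose part in it was not tested.

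Other members of the families also split. Among 14 ELMO and DOCK genes (the 4 described above included), 5 were higher and 2 lower at 3 h. At 24 h 1 was higher and 6 lower, with 1 higher and 10 lower under median scaling. Without that rescaling, 50% of the list passed the test at each time, beside 53.8% and 63.1% of all genes tested. Dock10 (-1.44 ± 0.06) and Dock8 (-1.28 ± 0.10), exchange factors of leukocytes, fell by 24 h. Dock5 (-0.81 ± 0.09) and Dock4 (-0.44 ± 0.09) fell at 3 h. Dock3, a neuronal form, rose by 0.96 at 3 h and 1.51 at 24 h. Of 6 measured coronins (Coro1a and Coro2b included), 3 were higher and 1 lower at 3 h, and at 24 h 5 fell and no other passed the test. Those past the test were 66.7% and 83.3% of the coronins. The 3 h split was 2 and 2 under quantile normalization and 1 and 3 under median scaling. Coro1b (0.47 ± 0.06) and Coro1c (0.33 ± 0.07) rose at 3 h. Coro7 (-1.05 ± 0.06), a coronin of the Golgi, Coro2a (-0.84 ± 0.07) and Coro1c (-0.34 ± 0.07) fell by 24 h.

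Among 15 adaptors and kinases (Gulp1 included), 11 were higher and 2 lower at 3 h, and 5 were higher and 3 lower at 24 h. These were 86.7% and 53.3% of the list, beside 53.8% and 63.1% of all genes tested. Median scaling gave 5 and 3 at 3 h, then 1 and 9. Pxn, the focal adhesion protein paxillin, rose by 1.04 at 3 h, the kinase gene Src by 0.97 and Lcp2, the adaptor SLP-76 that works with VAV1, by 0.93. At 24 h Bcar1, a scaffold upstream of DOCK1, was 1.67 higher and Nck2 0.63 higher, while the kinase gene Ptk2b fell by 0.81. Of 15 Rac exchange factors (Vav1 included), 5 were higher and 5 lower at 3 h, and 3 were higher and 6 lower at 24 h. These were 66.7% and 60% of the list, and median scaling gave 3 and 6, then 1 and 10. Tiam1 rose by 1.45 at 3 h and 2.13 at 24 h and Prex2 by 1.32 and 1.00, both dim, with 2 of 3 control arrays well above background. Def6 rose by 0.75 at 3 h, and Swap70, its relative, fell by 1.13 at 24 h. Of 14 measured GTPase-activating and dissociation proteins of Rac, 9 were higher and none lower at 3 h, and 3 were higher and 4 lower at 24 h. These were 64.3% and 50% of the list, and median scaling gave 6 and none, then 1 and 10. Arhgap25, a GAP of phagocytes, rose by 1.07 and Bcr by 0.97 at 3 h, and Arhgap15 fell by 1.68 at 24 h. Chn1, a neuronal Rac GAP, was at least 5.36-fold higher at 3 h and at least 18.3-fold higher at 24 h, and its relative Chn2 at least 4.8-fold lower at 24 h.

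Downstream of Rac, 17 of 25 genes of the WAVE, WASP and Arp2/3 complexes were higher and 1 lower at 3 h, and 9 were higher and 11 lower at 24 h. These were 72% and 80% of the list, beside 53.8% and 63.1% of all genes tested. Median scaling gave 12 and 5 at 3 h, then 5 and 17. Wasf1, the WAVE form of neurons, was 4.82 and 4.48 higher, and Wasl (1.42) and Wasf3 (1.09) were higher at 3 h. At 24 h the Arp2/3 subunit gene Arpc1a was 1.61 higher and Arpc5l fell by 1.68. Of 32 genes of actin turnover, 24 were higher and 1 lower at 3 h, and 11 were higher and 10 lower at 24 h. These were 78.1% and 65.6% of the list. Under median scaling the counts were 13 and 4 at 3 h and 6 and 23 at 24 h. Fscn1, the filament bundler fascin, rose by 2.03 at 3 h, Pak1, a kinase activated by Rac, by 1.28, and Tmsb10, which binds actin monomers, by 1.40 at 3 h and 2.49 at 24 h. Pfn2, a profilin best known from neurons, was 1.40 higher and Diap1 1.28 higher at 24 h. Bai1, Chn1, Wasf1, Dock3 and Pfn2 are known from neurons, and the part of the neuroblastoma RNA in their values was not tested. Among these, Pfn2 did not differ from control at 3 h (-0.05, limma adjusted p = 0.59). Coro2b, also best known from neurons, fell at both times.

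**Figure D5:**
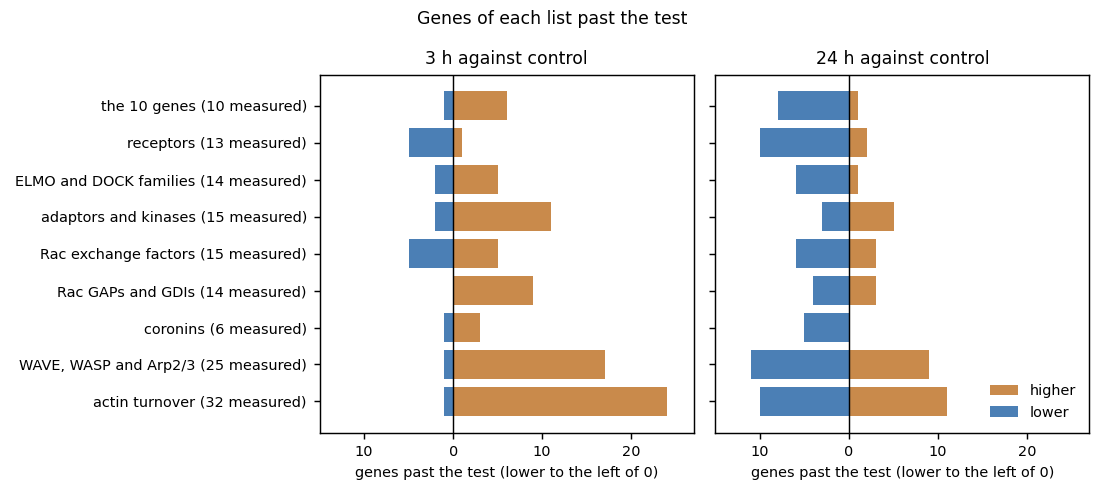
Genes of each list that passed the limma adjusted p threshold of 0.05, higher to the right of 0 and lower to the left, at 3 h and 24 h against control. Of all genes tested, 53.8% passed at 3 h and 63.1% at 24 h. The lists of actin turnover (24 of 32) and of WAVE, WASP and Arp2/3 (17 of 25) have the longest bars to the right at 3 h, and receptors (10 of 13) and the 10 genes (8 of 10) lean to the left at 24 h. Median scaling gave fewer higher or more lower genes in every list, so that actin turnover had 6 higher and 23 lower at 24 h and the coronins 1 higher and 3 lower at 3 h.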

How the data were processed

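Total RNA of 9 cultures was labelled with Cy3 and hybridised to one-color Agilent 8x60K mouse arrays. The authors deposited scanner files made with Agilent Feature Extraction (10.7.3.1), whose processed signals are background-subtracted intensity values, and a value table of log2 values for 36655 probes, which was deposited by the authors after normalization and is used here as an alternative. The authors' own GeneSpring and maSigPro steps were not repeated.

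Control spots and spots with outlier flags were dropped (56 probes without a usable spot on every array were left out), spots of a probe were averaged, and log2 of the processed signal minus log2 of each array's 75th percentile was taken. A probe was kept if 1 or more of the 9 arrays read it well above background (34385 of 55681), and a gene was read by its brightest kept probe (24102 genes). limma (3.58.1, R 4.3.3) fitted the 3 group means on all arrays with eBayes, and p-values were adjusted by Benjamini-Hochberg over all genes, with calls at 0.05. limma's moderated tests are meant throughout by adjusted p. The pipeline was tested on simulated data. The study calls the 3 arrays of a group independent experiments. Slides were inferred from the scan date recorded for each array, not from a slide label. By scan date, replicates 1 and 2 of all groups were on slide 1, and replicate 3 on slide 2. The number of arrays limits the precision.

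The 10 genes and the gene lists were chosen with earlier results of these data known. Named were the 10 genes with all their probes, up to 3 called genes of each list with the largest change at each time, and for the 3 genes with the largest change at 24 h the 3 genes with the highest r. A gene list and some markers are not reported here. Alternatives were quantile normalization, median scaling, normexp with offset 50, the value table, other filters, the mean over probes, replicate and slide blocks, slide 1 alone, fits of 2 groups and leaving out each array. The within-array ratios were added after seeing the data. Probe coordinates are those of the files (mm9), and promoters come from a RefSeq table (GRCm38.p6).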

Additional observations from a re-analysis of the deposited data

Results flagged for a closer look

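For 8 of the 10 genes the difference from control at 24 h was not the same as at 3 h by a direct test of the 2 time points (limma, adjusted over all genes). The log2 difference between Ph24h and Ph3h was -1.73 for Elmo1, -0.39 for Elmo2, -0.70 for Dock1 and -1.49 for Dock2. It was -1.30 for Rac2, -1.37 for Vav1, -1.81 for Coro1a and -2.21 for Coro2b, so all 8 were lower late than early. Over all genes 44.4% passed this test, 24% of them lower at 24 h as a share of all genes tested. For each of the 8 every Ph24h array lay below every Ph3h array. Rac1 (0.16, adjusted p = 0.05) and Gulp1 (-0.16, adjusted p = 0.54) did not pass.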

How the results depend on the processing

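The number of the 10 genes past the test was 5 to 8 at 3 h, 9 to 10 at 24 h and 8 to 9 between 24 h and 3 h over the alternatives, and Elmo1, Dock2, Rac2, Coro1a and Coro2b kept their direction and call at both times in all of them. Rac1 at 3 h turned to -0.09 under quantile normalization, -0.19 under median scaling, -0.113 under normexp and -0.093 in the value table. Vav1 at 3 h turned to -0.113, -0.09, -0.107 and -0.112 in the same order. Elmo2 at 3 h turned to -0.167 under median scaling, -0.001 under normexp and -0.005 on slide 1 alone. Under median scaling Rac1 at 24 h was -0.295, Gulp1 at 24 h -0.12 and Rac1 between 24 h and 3 h -0.105, which was -0.063 as the mean over probes. Gulp1 between 24 h and 3 h ranged from -0.293 without Ph24h replicate 1 to 0.004 without Ph24h replicate 3. The causes were not tested, but median scaling by its construction shifts every gene of an array alike.

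Gulp1 at 3 h also missed the test under quantile normalization (adjusted p = 0.14), median scaling (0.25), normexp (0.13) and in the value table (0.14). Dock1 missed it on slide 1 alone at 3 h (0.17) and 24 h (0.073). As the mean over probes Rac1 was 0.245 higher at 3 h (adjusted p = 0.0085), and between 24 h and 3 h Rac1 passed the test under quantile normalization, normexp, the value table, the stricter filter, the slide block and without Ph24h replicate 3 (adjusted p = 0.0017 to 0.041). Of all genes called, 51.8% were higher at 3 h, 47.4% at 24 h and 45.8% between 24 h and 3 h; median scaling gave 33.6%, 23.8% and 22.6%, normexp 41.4% at 3 h, and no filter 66.9% and 65% at 3 h and 24 h.

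Same-numbered arrays did not deviate together (r -0.057 to 0.041 over 9 pairs). No pairing by number was seen, which does not show that the cultures were unpaired. With a replicate block 12512, 14770 and 10051 genes were called, against 12972, 15207 and 10695, and of the 10 genes 6, 9 and 8, with Gulp1 at 3 h lost (adjusted p = 0.067). Leaving out 1 array in turn gave 11445 to 13164 genes at 3 h, 13722 to 15087 at 24 h and 9455 to 10424 between 24 h and 3 h. Coro2b at 24 h lay near background, which limits what can be said of the size of its fall.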
